A study of Homo sapiens with 6 samples.

Results

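The EGR genes encode zinc finger transcription factors, and the NAB genes encode the corepressors that bind them. The group held 6 genes, EGR1, EGR2, EGR3, EGR4, NAB1 and NAB2, of 62252 genes with an annotated transcript in the data. The genes were found by symbol in GENCODE release 44, which placed 30 of 252045 quantified transcripts in them, and the estimated counts and the TPM of those transcripts (transcript abundance corrected for length and depth) were summed per gene in each library. The 6 genes were chosen by their measured counts and TPM in Chelator against DMSO, so that difference is given as a description with no test.

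The libraries came from K562, an erythroid leukemia line that carries the BCR-ABL1 fusion kinase. Cells in the Chelator group were kept overnight in 10 µM 21H7, an iron chelator that enters cells, and cells in the DMSO group received the solvent alone at matched volume. Both groups grew in RPMI medium with fetal bovine serum, and each had 3 libraries of polyA-selected RNA that the submitters describe as biological replicates. The comparison asks how RNA levels differ when cells are deprived of iron by a chelator, and a single line, dose and time of harvest limit what it can stand for.

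EGR proteins are immediate early factors: growth factors, stress and other signals that run through RAS and ERK switch their genes on within minutes, through serum response factor (SRF) and its ETS-family partners bound at CArG boxes in the promoters, with CREB at CRE sites. EGR1 is the broadly expressed member, EGR2 is best known from myelinating Schwann cells and hindbrain patterning, EGR3 from muscle spindles and lymphocytes, and EGR4 from the germ line and neurons. NAB1 and NAB2 dock on an inhibitory domain of EGR1, EGR2 and EGR3 and recruit the NuRD chromatin complex through its CHD4 subunit, and NAB2 is itself an EGR-induced gene, which closes a negative feedback loop.

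Matches to the sites of SRF and of EGR proteins were looked for in the promoters of the members, and the 4 windows printed here are those of EGR1, EGR2, NAB1 and NAB2 that hold them. Each is the 250 bases before a start site in RefSeq, build GRCh38.p14, written from the upstream end on the strand of the gene. Capitals mark CArG boxes in the EGR genes and the EGR sites GCGGGGGCG (or their reverse complement) in the NAB genes. They lie at chr5:138465229-138465478 on the plus strand for EGR1, chr10:62816367-62816616 on the minus strand for EGR2, chr2:190648645-190648894 on the plus strand for NAB1 and chr12:57088864-57089113 on the plus strand for NAB2.
EGR1: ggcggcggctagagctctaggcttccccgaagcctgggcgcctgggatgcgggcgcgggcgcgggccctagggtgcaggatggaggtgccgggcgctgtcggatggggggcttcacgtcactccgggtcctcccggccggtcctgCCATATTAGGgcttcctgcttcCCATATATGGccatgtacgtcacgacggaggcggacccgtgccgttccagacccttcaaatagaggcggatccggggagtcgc
EGR2: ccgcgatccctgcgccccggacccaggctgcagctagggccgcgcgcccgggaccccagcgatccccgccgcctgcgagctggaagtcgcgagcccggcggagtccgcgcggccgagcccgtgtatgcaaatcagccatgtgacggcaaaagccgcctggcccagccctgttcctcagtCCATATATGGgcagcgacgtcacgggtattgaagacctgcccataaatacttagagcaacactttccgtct
NAB1: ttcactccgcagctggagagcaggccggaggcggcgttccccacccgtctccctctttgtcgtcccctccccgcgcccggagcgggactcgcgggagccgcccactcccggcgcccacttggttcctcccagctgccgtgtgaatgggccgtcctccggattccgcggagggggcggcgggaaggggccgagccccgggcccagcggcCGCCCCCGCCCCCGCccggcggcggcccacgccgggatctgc
NAB2: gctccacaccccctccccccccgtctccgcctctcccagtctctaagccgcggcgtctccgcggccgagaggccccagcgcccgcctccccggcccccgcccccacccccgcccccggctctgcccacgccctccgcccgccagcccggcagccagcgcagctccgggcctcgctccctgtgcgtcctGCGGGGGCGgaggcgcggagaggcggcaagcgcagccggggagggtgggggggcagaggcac

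The EGR1 window held 2 CArG boxes, at positions -105 to -96 and -83 to -74 from the start, and the EGR2 window held 1, at -71 to -62. The second box of EGR1 and the box of EGR2 were the same 10 letters. In both genes a CRE core, TGACG on either strand, followed this box after 7 bases. Each window held another CRE core further upstream, at -135 to -131 in EGR1 and at -110 to -106 in EGR2. A CArG box was present in 1.16% of 35093 promoter windows of the same length, and at least 2 of them in 0.0313%. A CArG box with at least 2 CRE cores was present in 0.0484% of windows, a combination that was counted after the matches had been seen.

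The NAB windows held EGR sites instead of CArG boxes. The NAB1 window held 2 copies of GCGGGGGCG that overlap each other and a GC box (GGGGCGGGG, the site of SP factors), and the NAB2 window held 1 copy at -62 to -54 beside 2 separate GC boxes. GCGGGGGCG was present in 4.72% of all windows and a GC box in 15.1%. A later NAB1 start site, whose window overlaps the one printed, added 1 copy of the other EGR site, GCGTGGGCG, which was present in 0.721% of windows. The printed start is that of transcript NAB1-204, with NAB1-207 starting close by (4.04% and 10.7% of NAB1 TPM in DMSO, 1.21% and 12.9% in Chelator). The later start is that of NAB1-201, with NAB1-202 close by, the transcripts with the highest shares of NAB1 TPM. From it, the copies of GCGGGGGCG lie at -230 to -222 and -224 to -216. The printed NAB windows were rich in G and C, at 78% and 81.2%, against 68.4% in EGR1, 66% in EGR2 and a median of 58% over all windows. Windows not printed were at 80% and 36.8% for NAB1, 54.8% and 78% for EGR2 and 69.6% for EGR4. The contrast therefore holds for the printed windows only.

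EGR4 had a window of the same kind, with 2 CRE cores and neither a CArG box nor an EGR site of these letters. No member window held the full CRE palindrome TGACGTCA or the ETS site in the form CCGGAA, which were present in 1.65% and 14.5% of windows. Other forms of ETS site were not searched for, so their absence is not shown. The hypoxia response core ACGTG was found in EGR1, at -137 to -133 and sharing bases with the upstream CRE core, and in an upstream EGR2 window, and it was present in 18.5% of all windows. RefSeq windows were matched for 5 of the 6 members, with 9 windows in all. A match of letters is a description and not evidence of binding.

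**Figure D1:**
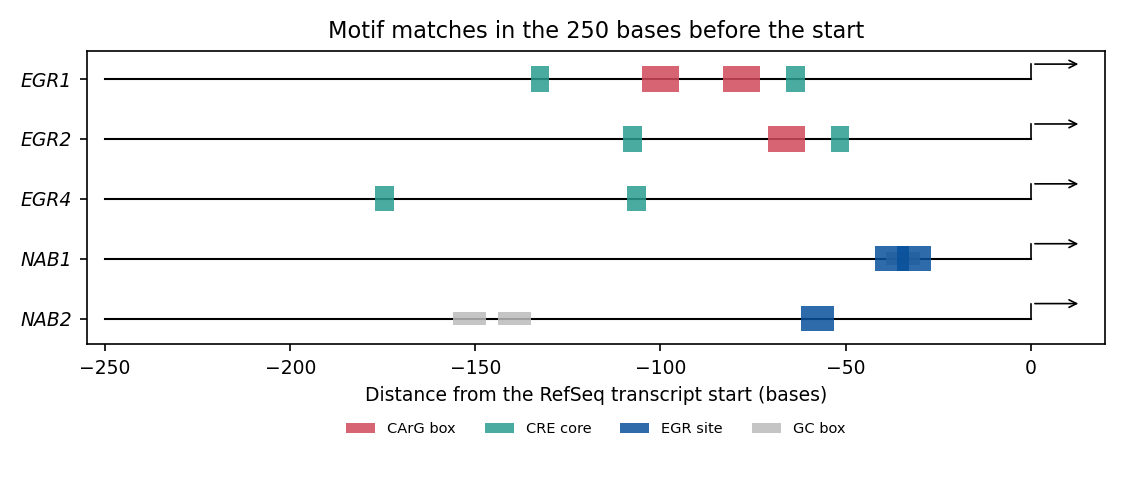
Map of motif matches in 1 promoter window of each member that has one, for NAB1 the window printed above. The horizontal axis is the distance from the RefSeq start site in bases, and coloured boxes are CArG boxes, CRE cores, EGR sites and GC boxes. CArG boxes are seen in EGR1 and EGR2 and EGR sites in NAB1 and NAB2, where the GC box of NAB1 is hidden by the EGR sites.

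The libraries held 78615500 to 90383641 estimated counts in DMSO and 85449857 to 101094957 in Chelator, and mitochondrial transcripts took 4.42% to 7.06% and 5.36% to 6.26% of them. The median difference between transcript length and effective length, which follows fragment length, ran from 252 to 264 bases in DMSO and, without overlap, from 200 to 218 in Chelator. Treatment and fragment length therefore cannot be told apart here. Across all genes, DESeq2 gave an adjusted p to 24542 genes and called 2007 higher and 639 lower in Chelator, where a call needs an adjusted p below 0.05 and more than a log2 unit of change. Centring on the mean log2 fold change turned this split into 1644 and 1050. The median log2 fold change of all genes was 0.016.

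K562 identity was checked with 12 erythroid markers, whose summed TPM was 12769 to 14051 in DMSO and 19619 to 20752 in Chelator. DESeq2 called 2 of the 12 higher, TFRC, the transferrin receptor, and ALAS2, the erythroid enzyme of heme synthesis. At an adjusted p under 0.05 alone, 6 were higher and 4 lower in DESeq2, against 19.5% and 18.3% of all genes. The 4 lower ones were KLF1 and LMO2 (both -0.72 on the log2 scale), EPOR (-0.44) and TAL1 (-0.28). The 8 T cell markers summed to 10.95 to 17.05 TPM in DMSO and 40.5 to 42.9 TPM in Chelator, with 3 called higher (CD3D, CD3E and TRAC), 6 staying under 1 TPM in every library and 1 at 0 throughout. The 8 megakaryocyte markers summed to 98.9 to 104 and 122 to 146 TPM, with none called and 2 at 0 in every library (3 had an adjusted p under 0.05 in DESeq2, all higher, and as many unadjusted). The 6 monocyte markers summed to 11.4 to 12.4 TPM in DMSO and 17.6 to 19.9 TPM in Chelator, with none called and 1 higher in DESeq2 at an adjusted p under 0.05 (unadjusted, also 1). The 6 B cell markers summed to 1.97 to 2.49 TPM in DMSO against 3.12 to 3.67 TPM in Chelator, with PAX5 called higher and CR2 lower at an adjusted p under 0.05 (-0.93 on the log2 scale), and the 6 fibroblast markers to 2.77 to 3.41 TPM against 3.48 to 3.95 TPM, with COL1A1 called higher and COL1A2 lower at an adjusted p under 0.05 (-0.48). The part of these differences in the member levels was not tested, and bulk RNA does not tell fewer cells of a type from less RNA per cell.

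EGR1 was the most abundant EGR transcript in both groups. Its gene (ENSG00000120738.8, chromosome 5, 138465479 to 138469303, plus strand) had a level of 15.5, 15.3 and 14.5 TPM in DMSO replicates 1 to 3, against 156, 152 and 150 TPM with the chelator. All Chelator libraries were far above all DMSO libraries, and the spread within each group was small. In normalized counts, which are scaled for depth and transcript length by DESeq2, EGR1 averaged 3619 ± 333 in the DMSO group against 35640 ± 1592 in the Chelator group (SD, n = 3), a ratio of 9.85 and a log2 fold change of 3.30 (SE 0.083). Among expressed genes ordered by TPM, EGR1 moved from the percentile of 74.7 to that of 96.6.

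EGR3 had the highest ratio among the 5 members with counts in DMSO. It lies on chromosome 8 (ENSG00000179388.9, 22687659 to 22693480, minus strand) and had 12, 6 and 4 estimated counts in the DMSO libraries, or 0.034, 0.021 and 0.040 TPM. The Chelator libraries held 2753, 2398 and 2002 estimated counts, or 9.23, 7.83 and 8.02 TPM. The gene was thus close to the limit of counting in DMSO and of moderate level in Chelator. The mean normalized counts were 8.10 and 2051, and the ratio fitted by DESeq2 was 277, which rests on 22 DMSO counts in all. Its log2 fold change ranked 23 among all genes in the fit, and its percentile by TPM was 9.91 in DMSO and 67.5 in Chelator.

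EGR2 followed at a lower level. Its gene (ENSG00000122877.18, chromosome 10, 62811996 to 62819167, minus strand) had 6, 5 and 0 estimated counts in DMSO, against 346, 378 and 337 with the chelator. In TPM these were 0.028, 0.028 and 0 against 1.52, 1.56 and 1.64, so no DMSO library reached the range of the Chelator libraries. The normalized counts were 3.88 ± 3.39 in DMSO and 322 ± 11.9 in Chelator (SD, n = 3). The ratio fitted by DESeq2 was 80.6, a log2 fold change of 6.33 (SE 0.49). With 11 DMSO counts in all, the size of this ratio was the least certain of those that could be formed, and the log2 value lay between 5.79 and 6.85 when single libraries were left out.

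EGR4 was the least abundant member. Its gene (ENSG00000135625.8, chromosome 2, 73290929 to 73293701, minus strand) had no count in any DMSO library. The chelator-treated libraries held 13, 14 and 13 estimated counts, or 0.064, 0.063 and 0.068 TPM. The Chelator mean was 12.3 ± 0.67 normalized counts (SD, n = 3). A floor of 3 counts over the DMSO group, 1.08 normalized counts, put EGR4 at least 11.4-fold higher in Chelator. With a floor of 3 counts in each DMSO library, an alternative added after the data were seen, the bound was 3.81-fold. The level was nevertheless close to the limit of detection in both groups.

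The corepressor NAB2 was the higher of the NAB pair in Chelator. Its gene (ENSG00000166886.13, chromosome 12, 57089043 to 57095476, plus strand) had a level of 15.0, 14.1 and 13.2 TPM in DMSO, against 30.9, 31.7 and 35.6 TPM with the chelator. The lowest Chelator library was above the highest DMSO library. The normalized counts were 2310 ± 277 and 5234 ± 401 (SD, n = 3), a ratio of 2.27 and a log2 fold change of 1.18 (SE 0.10).

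NAB1 differed least. Its gene (ENSG00000138386.17, chromosome 2, 190646746 to 190692766, plus strand) had a level of 13.6, 15.9 and 14.1 TPM in DMSO, against 21.0, 16.6 and 17.7 TPM with the chelator. The highest DMSO library and the lowest Chelator library lay close together, and Chelator replicate 1 stood above the others. The normalized counts were 2356 ± 46.4 and 2936 ± 451 (SD, n = 3), a ratio of 1.25 and a log2 fold change of 0.32 (SE 0.11). The log2 value was 0.19 without Chelator replicate 1, 0.21 without the length offset and 0.16 with centred libraries, so its size varied with each of these. Only the centred value moved beyond the spread between replicates (0.155 on the log2 scale).

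**Figure D2:**
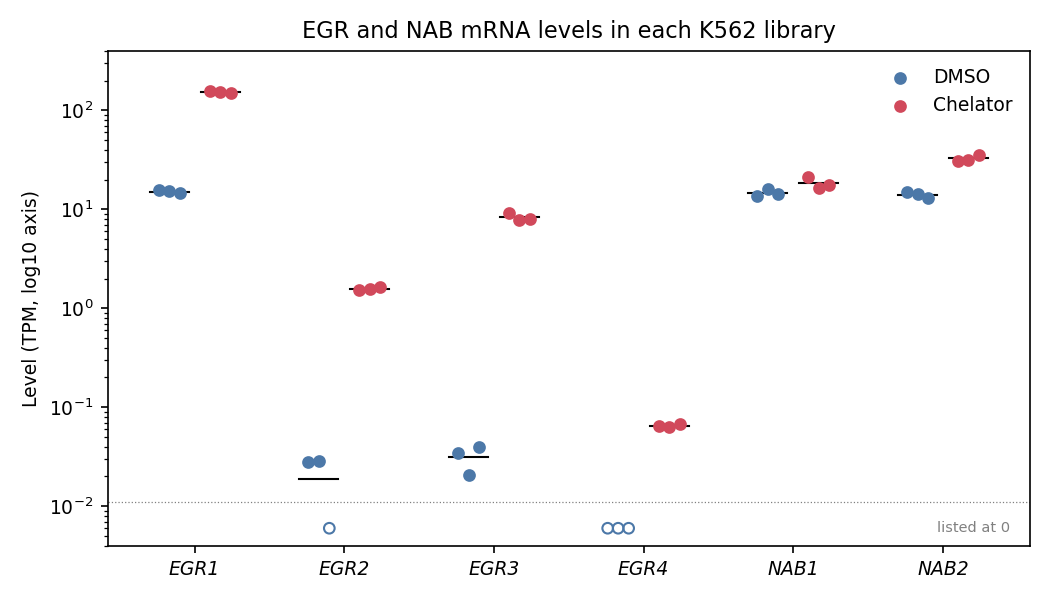
Level of each member in the 6 libraries. The vertical axis is TPM on a log10 scale, points are single libraries (blue, DMSO; red, Chelator), short lines are group means, and open points below the dotted line are libraries listed at 0. EGR1 and NAB2 start from similar levels in DMSO and part in Chelator, EGR2 and EGR3 start near 0.03 TPM or below, and the groups of NAB1 lie close together.

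By the call rule, 5 of the 6 members were higher in Chelator, against 8.18% of all genes with an adjusted p, and NAB1 was below the fold threshold. Normalized counts did not overlap between the groups and were higher in Chelator for 6 of 6 members, against 25.5% of genes. Both counts follow from how the members were chosen, and the members nearest to the fold threshold on either side were NAB2 at 1.18 and NAB1 at 0.32 on the log2 scale. The order of the levels differed between the groups. In DMSO the TPM ranges of EGR1, NAB1 and NAB2 overlapped and lay far above the other 3 members. In Chelator the order was EGR1, NAB2, NAB1, EGR3, EGR2 and EGR4, and no neighbours in it overlapped.

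The balance between the factors and their corepressors was read from summed TPM. The 4 EGR genes together were at 14.6 to 15.6 TPM in DMSO and 160 to 166 TPM in Chelator, and the NAB pair was at 27.3 to 30.0 and 48.3 to 53.3 TPM. EGR transcripts were thus outnumbered by NAB transcripts in every DMSO library and exceeded them in every Chelator library. The ratio of EGR to NAB was 0.545, 0.512 and 0.534 in DMSO and 3.209, 3.335 and 3.0004 in Chelator. Its mean was 0.53 ± 0.017 and 3.18 ± 0.17 (SD, n = 3), a change by a factor of 5.998. RNA levels do not give the ratio of the proteins.

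The makeup of each sum differed as well. EGR1 was 99.7% ± 0.065 of EGR TPM in DMSO and 93.9% ± 0.32 in Chelator (SD, n = 3). EGR3 was 5.14% ± 0.36, EGR2 0.97% ± 0.055 and EGR4 0.040% ± 0.0023 of the sum in Chelator. EGR1 thus made up most of the family's RNA in both groups. The ratio of NAB2 to NAB1 was 1.11, 0.89 and 0.93 in DMSO and 1.47, 1.92 and 2.02 in Chelator, and NAB2 made up 49.3% ± 2.86 and 64.0% ± 3.92 of NAB TPM.

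**Figure D3:**
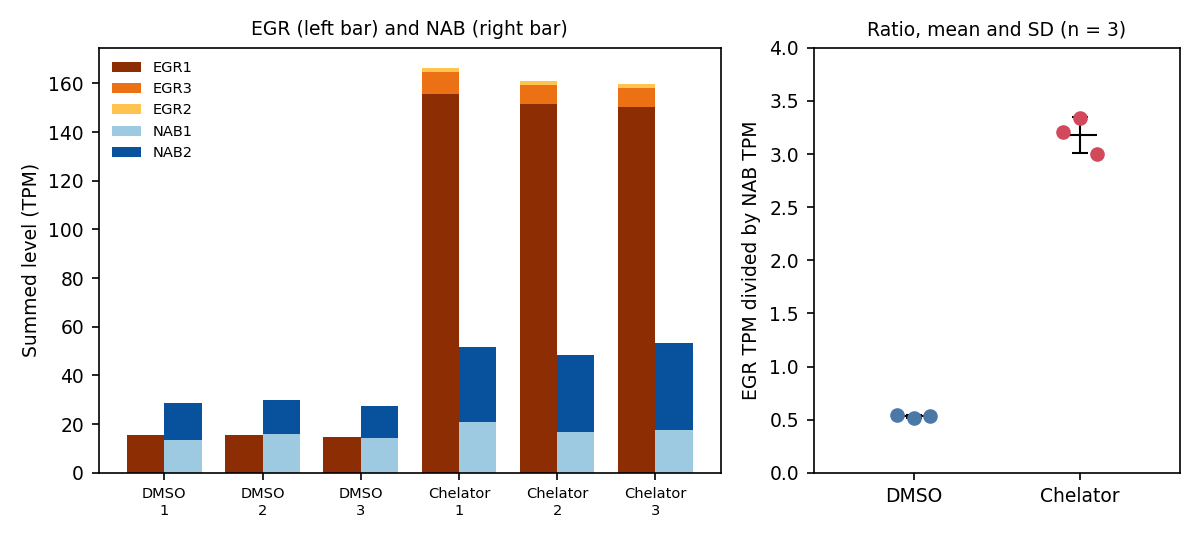
Summed TPM of EGR and NAB genes and their makeup in each library. The left panel stacks the TPM of the EGR genes (left bar) and the NAB genes (right bar), with EGR4 too low to be drawn, and the right panel gives the ratio of the sums by library with mean and SD. The ratio lies between 0.512 and 0.545 in DMSO and between 3.0004 and 3.335 in Chelator.

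Of the 30 annotated transcripts of the members, 17 had counts in DMSO, 24 in Chelator and 6 in no library. Salmon divides reads among overlapping transcripts by estimation, so shares of minor transcripts are less certain than gene sums. EGR1 has 1 annotated transcript. EGR2-201, which starts at the window printed above, held 85.5%, 83.2% and 97.9% of EGR2 TPM in the Chelator libraries, while all 11 DMSO counts were placed on EGR2-202. EGR2-202 starts at 62816373, close to the 62816366 of EGR2-201, so this is not a contrast of distant start sites. Which transcript was in use in DMSO cannot be read from so few counts.

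EGR3-201 held 74.1%, 70.7% and 65.7% of EGR3 TPM in the Chelator libraries and EGR3-204 held 17.6%, 20.1% and 25.7%. By estimated counts, which do not correct for the shorter length of EGR3-204, the share of EGR3-201 was 87.0%. EGR3-201, the longest of them, held most of the gene on both scales. In DMSO, 18 of the 22 counts were placed on EGR3-201 and the other 4 on a shorter transcript of the gene. All EGR4 counts were placed on EGR4-201.

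NAB1 was spread over more transcripts, with NAB1-202 at 37.5%, 38.5% and 37.4% of its TPM in DMSO and 33.0%, 42.7% and 42.9% in Chelator. NAB1-201 was at 33.2%, 32.4% and 31.8% in DMSO and 29.4%, 30.7% and 23.8% in Chelator. The groups overlapped for NAB1-202, while every Chelator library was below every DMSO library for NAB1-201. By estimated counts NAB1-201 was the larger on average, at 54.1% ± 0.39 of the gene in DMSO and 47.7% ± 5.87 in Chelator (SD, n = 3), against 35.3% and 39.9% for NAB1-202, so which of the pair led depended on the scale. In Chelator replicate 3 NAB1-202 led by counts as well, at 45.4% against 41.2%. NAB2-201 was at 56.2%, 52.7% and 43.8% in DMSO and 42.6%, 47.5% and 40.0% in Chelator, and NAB2-202 was at 27.8%, 36.2% and 38.7% against 38.1%, 33.9% and 35.9%. The shares of the groups overlapped for NAB2-201 and for NAB2-202, and both had more counts in Chelator (3939 and 2365 in DMSO against 9036 and 6851).

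**Figure D4:**
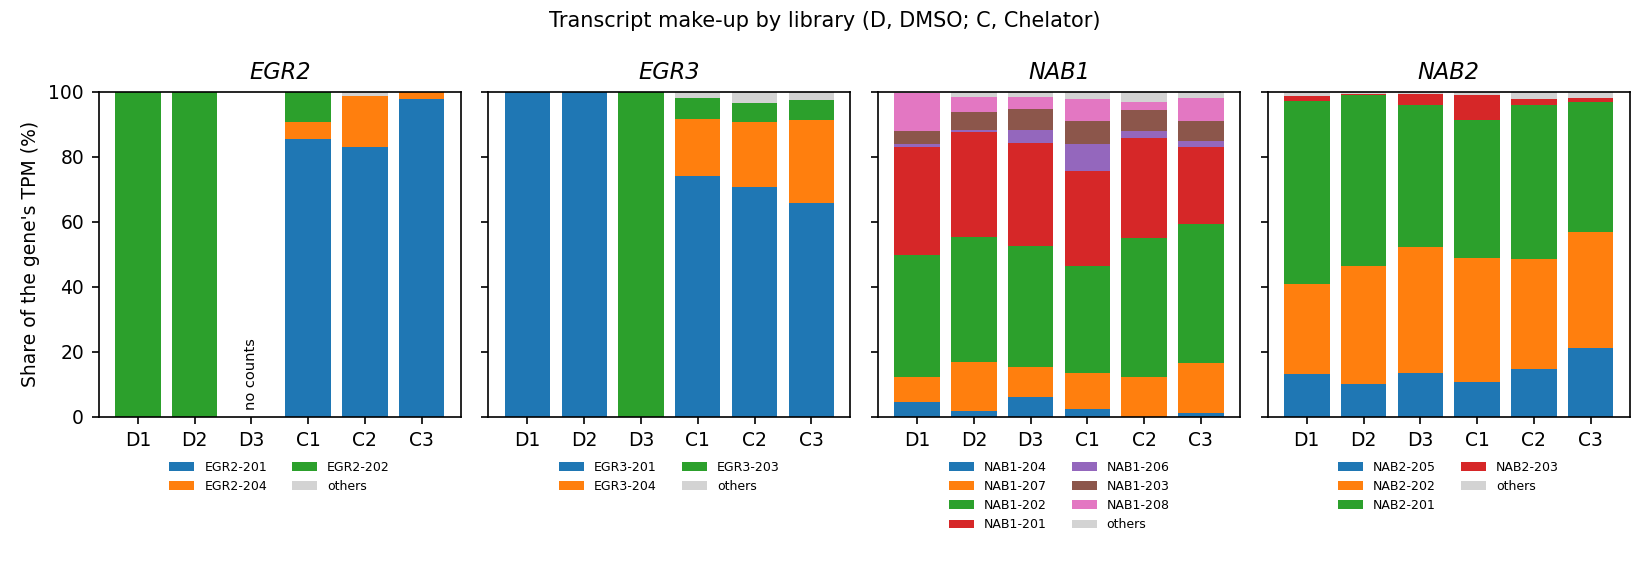
Share of each transcript in the TPM of its gene, by library. Each bar is a library (D, DMSO; C, Chelator), its coloured segments are transcripts of EGR2, EGR3, NAB1 or NAB2, and the axis is the percentage of the gene's TPM. The DMSO bars of EGR2 rest on 11 counts and those of EGR3 on 22, while EGR2-201 and EGR3-201 hold most of their genes in Chelator.

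Gene structure set the EGR genes apart from the NAB genes. The canonical transcripts of the 4 EGR genes have 2 exons each, as do 7.10% of 20046 protein-coding genes, whose median is 8. NAB1 has 10 exons and NAB2 has 7. The EGR transcripts span 3825, 4371, 5822 and 2620 bases of the genome in the order EGR1 to EGR4, against 43680 for NAB1, 6363 for NAB2 and a median of 22900. Short genes with few introns are a known trait of immediate early genes. The letters ATTTA, the core of AU-rich elements that mark unstable mRNA, occurred 1, 2, 3 and 0 times in the last untranslated region of EGR1 to EGR4, 10 times in NAB1 and 3 times in NAB2, against a median of 2.

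Some reads could belong to neighbouring genes. NAB2 shares 69 exon bases with STAT6, a cytokine-response factor on the opposite strand, with 2732 to 3173 estimated counts in DMSO and 3804 to 4670 in Chelator (0.23 on the log2 scale, SE 0.072, DESeq2 adjusted p = 0.0055). NAB1 shares 589 bases with the long noncoding RNA gene ENSG00000228509 on the opposite strand, which was higher in Chelator by 0.64 on the log2 scale (SE 0.14, DESeq2 adjusted p = 2.16e-05). Of the NAB1 sequences of 31 bases, 14.8% occur in other genes, the highest share among the members, against 0.0644% for EGR1, 3.15% for EGR2, 3.27% for EGR3, 0.0854% for EGR4 and 1.34% for NAB2. NAB1 also shares 10 bases with ENSG00000284052 on the opposite strand (-0.64 on the log2 scale, SE 0.37, DESeq2 adjusted p = 0.179). ENSG00000289487, which overlaps EGR2, had no counts, and ENSG00000253125, which overlaps EGR3, had 2 counts in a single library. How reads were split between strands is not given in the sources used here.

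The genes nearest to each member in pattern over the 6 libraries were found among 15217 genes, by the Euclidean distance of log2(normalized count + 1) centred on the DMSO mean. For EGR1 they were TIMP1, an inhibitor of matrix metalloproteases (distance 0.165), the noncoding RNA LINC00659 (0.172) and the chemokine CXCL8 (0.325). For EGR2 they included PAEP (0.90) and ENSG00000269711 (1.21). For EGR3 they were PHLDA1-AS1 (0.84), CA9, a carbonic anhydrase known as a hypoxia gene (0.95), and the VEGF receptor FLT1 (1.1003). EGR4 was nearest to the stress cytokine GDF15 (0.30), SP6 (0.30) and the netrin receptor UNC5B (0.32). NAB1 was nearest to TSTD3 (0.056), TMEM263 (0.077) and RABGAP1L (0.094), and NAB2 to the autophagy kinase ULK1 (0.097), ENSG00000290683 (0.153) and ENSG00000215022 (0.162). The DMSO levels of EGR2 and EGR3 were near 0 and those of EGR4 at 0, so their profiles rest on the pseudocount of 1, and for EGR4 the neighbours are genes that happen to match the value it sets.

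A list of 30 known EGR target genes had 28 with an adjusted p, of which DESeq2 called 14 higher and none lower, as did edgeR, against 8.18% and 2.6% of all genes. Without the fold threshold, 20 had an adjusted p under 0.05 and were higher, 3 were lower and 5 did not pass, against 19.5% higher and 18.3% lower over all genes, and at an unadjusted p under 0.05 these were 21 and 3. The median log2 fold change of the list was 1.21. CD44, a receptor for hyaluronan, rose in normalized counts from 55.2 ± 21.0 to 2669 ± 37.8 (SD, n = 3, log2 fold change 5.65, SE 0.18, DESeq2 adjusted p = 9.61e-203). PDGFB, a growth factor chain, rose from 94.6 ± 9.01 to 4366 ± 336 (log2 fold change 5.53, SE 0.13), with a DESeq2 adjusted p below that of CD44. The list was written with results of these data known, many of its genes answer to other factors too, and nothing is drawn from it about EGR activity.

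The genes upstream of EGR induction differed by less than the fold threshold. Of 25 genes of the RAS, ERK and SRF route, none was called in either direction by DESeq2 or edgeR, and at an unadjusted p under 0.05 DESeq2 had 5 higher and 11 lower, counts that were the same after adjustment, against 19.5% and 18.3% of all genes at an adjusted p under 0.05. Their median change was -0.089 on the log2 scale. The phosphatase gene PTPN11 fell from 38241 ± 1999 to 22135 ± 1915 normalized counts (SD, n = 3, log2 fold change -0.79, SE 0.081, DESeq2 adjusted p = 9.63e-21). SOS1, a RAS exchange factor, fell from 9643 ± 551 to 5692 ± 495 (log2 fold change -0.76, SE 0.086, DESeq2 adjusted p = 1.61e-17), and KSR1, a scaffold of the ERK cascade, rose from 8315 ± 376 to 13392 ± 900 (log2 fold change 0.69, SE 0.077, DESeq2 adjusted p = 1.67e-17). SRF itself was at 10490 and 10975 normalized counts (log2 fold change 0.065, SE 0.070, DESeq2 adjusted p = 0.522). ERK activity is set by phosphorylation, which these libraries do not measure.

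The partners of the corepressors and the factors that share G-rich sites with EGR proteins were also listed. Of 15 NuRD subunits, 1 was called higher and none lower by DESeq2 and by edgeR, and without the fold threshold 2 were higher and 8 lower at an adjusted p under 0.05 in DESeq2 (unadjusted, also 2 and 8), where 19.5% and 18.3% of all genes were. The called share of 1 in 15 is near the 8.18% of all genes. CHD5, a chromodomain subunit best known in neurons, was the one called, and rose from 24.4 ± 12.2 to 266 ± 130 normalized counts (SD, n = 3, log2 fold change 3.48, SE 0.41, DESeq2 adjusted p = 6.86e-16). MTA2 fell from 40411 ± 1128 to 26984 ± 1296 (log2 fold change -0.58, SE 0.067, DESeq2 adjusted p = 4.80e-17) and the deacetylase HDAC2 from 19669 ± 705 to 13215 ± 622 (log2 fold change -0.57, SE 0.069, DESeq2 adjusted p = 1.90e-15). The median change of the NuRD subunits was -0.22 on the log2 scale.

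Of 12 zinc finger factors of overlapping sites, 11 had an adjusted p and 1 was called higher, a share near the 8.18% of all genes. SP6 rose from 935 ± 36.7 to 11570 ± 1354 normalized counts (SD, n = 3, log2 fold change 3.63, SE 0.097, DESeq2 adjusted p = 8.36e-300). Without the fold threshold, 2 were higher and 6 lower at an adjusted p under 0.05 in DESeq2 (19.5% and 18.3% of all genes), among the latter SP1, a ubiquitous activator (log2 fold change -0.53, SE 0.095, adjusted p = 1.74e-07), and WT1, a factor that binds EGR-like sites (log2 fold change -0.52, SE 0.089, adjusted p = 3.42e-08). None was called lower by DESeq2 or edgeR, with 7 lower at an unadjusted p under 0.05. The median log2 fold change of this list was -0.43.

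**Figure D5:**
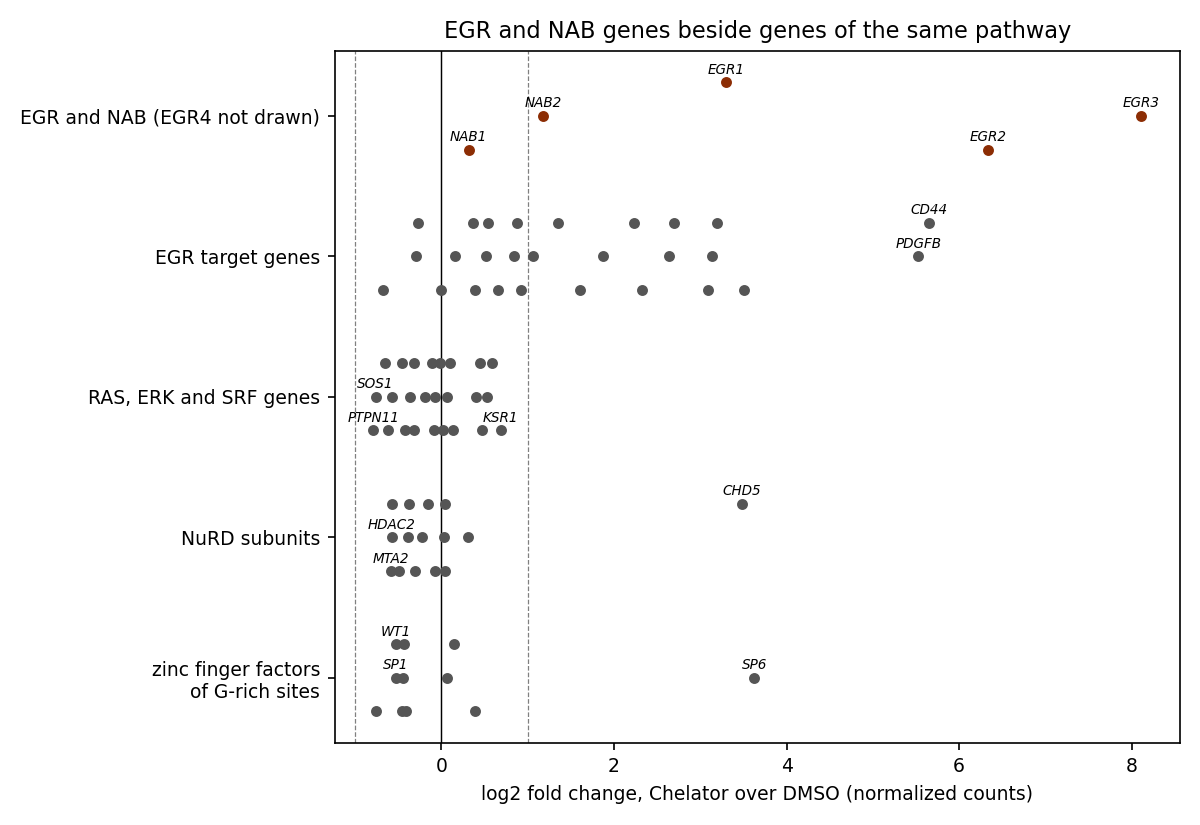
Log2 fold changes of 5 members and of the genes in the 4 pathway lists. The horizontal axis is the log2 fold change of Chelator over DMSO, each point is a gene with an adjusted p (1 EGR target gene is not drawn), the dashed lines mark the fold threshold, and vertical offsets only separate the points. EGR4, whose DMSO libraries are at 0, is not drawn. CD44 and PDGFB lie at 5.65 and 5.53, and the genes of the signalling list lie between -0.79 and 0.69.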

How the data were processed

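PolyA RNA of K562 cells was sequenced in paired ends. The authors quantified transcripts with Salmon 1.10.2, and the submitters' processing notes also name the build hg38. The annotation release and the strand setting are not given in the sources used here. The deposited tables hold, per transcript, estimated counts (expected counts), TPM and effective lengths, with no replicates pooled. Identifiers were looked up in GENCODE release 44 (251612 of 252045; the 433 unmatched held 0.139% to 0.150% of counts and were left out) and summed per gene.

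Gene-summed estimated counts were rounded to whole numbers and fitted with DESeq2 1.42.0 in R 4.3.3 (Wald test, median-ratio size factors, average transcript length as offset, total count above 10, Benjamini-Hochberg adjustment). The test, the adjustment and the thresholds follow the study's methods. The length offset was chosen here, as was the reading of the study's read count threshold as a total. A call needed an adjusted p below 0.05 and more than 1 log2 unit of change in either direction. Libraries were grouped by their labels, 3 against 3. Alternatives were edgeR 4.0.16, TMM factors, no offset, no filter, centring, a replicate block and leaving out each library. The steps were tested on simulated data. Python 3.11.15 was used for sums and motif searches. The floor of 3 counts used for a gene without counts covers counting error only.

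The named genes were all 6 members, the genes that overlap them, the 3 genes nearest to each in pattern (mean normalized count of at least 50, members left out), and per pathway list the 3 genes of largest absolute log2 fold change among those with an adjusted p under 0.05 and a mean normalized count of at least 50. Of the genes this rule names, 2 are not reported here. The marker genes given by name, and SRF, were named after their values were seen. The members and lists were chosen with earlier results of these data known. Depth limits EGR4 and the DMSO levels of EGR2 and EGR3. Each p-value sets the difference between the groups against the spread between these samples, 3 libraries of a single line in each group.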

Additional observations from a re-analysis of the deposited data

How the results depend on the processing

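Across the alternatives, no member log2 fold change reversed in sign, and the other values were not checked for reversal. Of all the values, 10 moved beyond the spread between replicates (for a count of genes, beyond a fixed ratio) and 211 did not. Many of the latter are counts of listed genes that stayed at 0 or 1. Centring on the mean log2 fold change gave 3.14 for EGR1, 0.16 for NAB1, 1.02 for NAB2 and 1050 genes called lower, by construction a uniform shift. NAB1 was at 0.21 without the length offset, within its spread between replicates. By estimated counts in place of TPM, transcript shares in Chelator were 87.0% for EGR3-201, 47.7% for NAB1-201, 53.8% for NAB2-201 and 41.0% for NAB2-202. The EGR4 bound was 3.81-fold with a floor of 3 counts in each library and 13.3-fold in estimated counts without normalization, both chosen after seeing the data. Leaving out single libraries gave log2 fold changes of 3.23 to 3.36 for EGR1, 5.79 to 6.85 for EGR2, 7.75 to 8.40 for EGR3, 0.19 to 0.41 for NAB1 and 1.102 to 1.27 for NAB2, an EGR4 bound of 11.1-fold to 11.8-fold, a change in the ratio of EGR to NAB by a factor of 5.85 to 6.17, 12 to 14 EGR targets called higher, and 1666 to 1998 genes called higher with 490 to 633 lower. Samples with the same replicate number correlated at -0.0036, 0.125 and 0.094 in their deviations over 15222 genes, so the numbers were not taken to pair them. With a replicate block the log2 fold changes were 3.30, 6.68, 8.12, 0.31 and 1.18 for EGR1, EGR2, EGR3, NAB1 and NAB2, with 1839 genes called higher and 506 lower and 13 EGR targets. Depth limits the DMSO levels of EGR2, EGR3 and EGR4.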
